A study of Mus musculus with 11 samples.

Results

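Haem is built by a pathway that starts and ends in the mitochondrion. The enzymes followed here were Alas1, Alas2, Alad, Uros, Urod, Cpox, Ppox and Fech, chosen by name in the gene annotation of the arrays. All 8 were on the array, and all 8 were among the 16704 genes that could be tested.

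RNA of normal mouse liver was compared at embryonic day 14 (E14, 3 arrays), embryonic day 18 (E18, 3 arrays), postnatal day 5 (P5, 2 arrays, replicates 2 and 3) and postnatal day 56 (P56, 3 arrays). On each of the 11 arrays the liver RNA was labelled with Cy5, and a commercial RNA of normal adult mouse liver, the same reference for all stages, with Cy3. The methods name C57BL/6 for embryos from which liver cells were isolated for culture, and the strain of the arrayed samples, their sex and the number of animals behind each are not given in the sources used here, so p-values measure the spread between these samples, which may be technical. The labels name liver as the source and also give a cell type (hepatoblasts, immature hepatocytes or hepatocytes by stage), while the extraction protocol covers both whole livers and cells isolated at E14 and E18, so which of them an E14 or E18 array holds is not settled. Isolation by E-cadherin, as the methods describe it for cultured cells, may lower the share of erythroid cells, which was not tested here.

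The first step joins glycine and succinyl-CoA and is carried out by 5-aminolevulinate synthase. It has a housekeeping isozyme, Alas1, which supplies haem for cytochromes P450 in hepatocytes, and an erythroid isozyme, Alas2, an X-linked gene that supplies haem for haemoglobin. Alad, Uros and Urod act in the cytosol, and Cpox, Ppox and Fech carry the closed ring to haem in the mitochondrion, where Fech inserts iron. The fetal liver is the main site of red cell formation before this moves to the bone marrow, so the liver holds both erythroid cells and hepatocytes during the stages compared. In samples of mixed cells, fewer cells of a type and less RNA per cell cannot be told apart.

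The probes that separate the isozymes are shown because the main contrast rests on them. All are 60 bases long and are printed 5′ to 3′ as the array design gives them, with no part in capitals. The Alas2 probe lay at chrX:145329125-145329184 on the plus strand of mm7, the Alas1 probe that stood for the gene at chr9:105963584-105963643 on the minus strand, and a second, dimmer Alas1 probe at chr9:105964920-105964979 on the minus strand.
Alas2 probe: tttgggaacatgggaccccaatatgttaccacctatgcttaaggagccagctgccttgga
Alas1 probe: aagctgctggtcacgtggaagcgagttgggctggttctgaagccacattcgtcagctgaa
Alas1 second probe: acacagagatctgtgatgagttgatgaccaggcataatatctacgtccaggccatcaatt
The Alas2 probe shared no run longer than 6 bases with the first Alas1 probe and 5 bases with the second, and at the best ungapped alignment 25 and 19 of 60 bases were identical.

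The promoters of the pathway were compared because most of its later enzymes moved together. The 250 bases before each RefSeq start on GRCm38.p6 were searched on both strands for GATA words, the letters GATA with A or T before them and A or G after them. Of the 8 enzymes, 7 were in the promoter table, with 10 starts. GATA words stood before 3 of the 10 starts, 1 each of Alas2, Cpox and Uros. That is near the share over the whole table, where 26.5% of the 32851 promoters held at least 1. Both promoters below have these words, as they read on the printed strand, in capitals. They are those of Alas2 at chrX:150547167-150547416 (plus strand) and Cpox at chr16:58669958-58670207 (plus strand).
Alas2 promoter: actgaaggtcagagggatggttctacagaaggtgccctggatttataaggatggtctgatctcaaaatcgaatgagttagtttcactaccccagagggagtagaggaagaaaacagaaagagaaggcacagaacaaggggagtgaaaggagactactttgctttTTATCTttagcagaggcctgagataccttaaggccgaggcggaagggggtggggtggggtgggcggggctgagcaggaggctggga
Cpox promoter: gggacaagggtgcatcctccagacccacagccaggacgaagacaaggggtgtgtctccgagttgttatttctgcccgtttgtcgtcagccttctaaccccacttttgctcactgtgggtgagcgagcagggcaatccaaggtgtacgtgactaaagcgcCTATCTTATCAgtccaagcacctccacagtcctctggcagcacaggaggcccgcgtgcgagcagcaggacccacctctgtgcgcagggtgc
The Alas2 word began 86 bases before the start. In Cpox 2 words overlapped by 1 base and began 91 and 86 bases before the start.

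Uros has 2 starts in the table. Among the words before its downstream start, the one at 68 bases is shown in capitals within 30 bases at chr7:133702551-133702580 (minus strand), and none stood before its upstream start.
Uros: tctccctcagccTTATCAgtgacagagggc
Alas1 had no GATA word before either of its 2 starts. The starts of Alad, Urod and Ppox had none in these windows. A match of letters is no measure of binding.

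All values are log2(Cy5/Cy3), the log2 ratio of the liver stage to the adult reference, so 0 is the level of the reference, and each unit is a doubling. They give the level of a gene against its own reference and do not rank genes against each other. The used probes of all 8 enzymes were well above background in both channels on all 11 arrays, and none was saturated. Spots well above background in Cy5 numbered 22027 to 25718 per array at E14, E18 and P5 and 16790 to 23079 at P56, with P56 replicate 2 the lowest. A linear model was fitted to the 11 arrays together with limma, p-values were adjusted by Benjamini-Hochberg across the 16704 genes, and a gene was called at an adjusted p under 0.05. The number of arrays limits the precision.

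Alas1 rose through liver development. Its log2 ratio was -2.99, -3.14 and -3.04 at E14, then -1.71, -1.91 and -1.91 at E18, -1.17 and -1.20 at P5, and 0.22, 0.15 and 1.17 at P56. No arrays of different stages overlapped. The level was 2.32-fold higher at E18 than at E14 (log2 difference 1.21, SE 0.21, adjusted p = 0.000583 by limma) and 3.25-fold higher at P56 than at P5 (1.70, SE 0.24, adjusted p = 0.000139). The step from E18 to P5 was 0.66 and was not called (adjusted p = 0.0911). From E14 to P56 the level rose 11.9-fold (3.57, SE 0.21, adjusted p = 2.79e-08). The second Alas1 probe gave log2 differences of 0.95, 0.74 and 1.73 for the 3 successive steps and 3.42 from E14 to P56.

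Alas2 stayed high until P5 and fell in the adult. Its log2 ratio was 2.34, 2.30 and 2.47 at E14, 2.56, 2.90 and 2.77 at E18, 2.38 and 2.22 at P5, and 0.58, -0.98 and -0.82 at P56. Adult arrays lay below all others, and P56 replicate 1 lay above the other two. The level was 6.54-fold lower at P56 than at P5 (log2 difference -2.71, SE 0.35, adjusted p = 6.97e-05 by limma). The differences from E14 to E18 (0.38, 95% interval -0.30 to 1.05, adjusted p = 0.35) and from E18 to P5 (-0.44, interval -1.20 to 0.31, adjusted p = 0.431) were not called. The E18 arrays nevertheless lay above every array of E14 and P5, and those of E14 and P5 overlapped. A fit on the E14 and E18 arrays alone called the first of these differences (adjusted p = 0.00895).

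**Figure D1:**
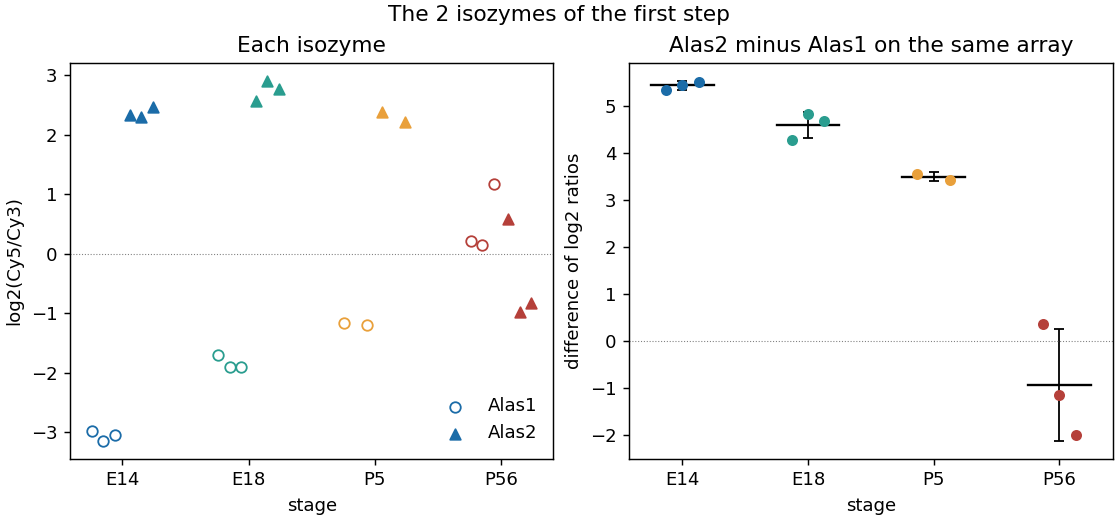
Left, log2(Cy5/Cy3) of Alas1 (open circles) and Alas2 (filled triangles) on each array by stage, and right, Alas2 minus Alas1 on the same array with the stage mean and SD (n = 3, 3, 2 and 3). The symbols of the isozymes are far apart at E14 and mix at P56, where the difference runs from -1.99 to 0.36.

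The balance of the isozymes was taken within each array as the log2 ratio of Alas2 minus that of Alas1. It was 5.43 ± 0.094 (SD, n = 3) at E14, 4.59 ± 0.28 (n = 3) at E18, 3.49 ± 0.095 (n = 2) at P5 and -0.92 ± 1.2 (n = 3) at P56. The stages did not overlap. Across the 4 stages the exact permutation test (two-sided) gave p = 6.49e-05, from 6 of 92400 assignments of the arrays, which is the smallest p it allows. The successive differences were -0.84, -1.10 and -4.41, each with an exact permutation p of 0.1, the smallest that these numbers of arrays allow. P56 replicate 1 was the only adult array with a difference above 0, at 0.36, and the other adult arrays were at -1.13 and -1.99. Without it the step from P5 to P56 was -5.05. Arrays of E14 and E18 share a scan only through E18 replicate 1, and within that scan the step was -1.15. Within the scan that holds P5 replicate 3 and P56 it was -4.34.

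Of the cytosolic enzymes, Alad, which joins pairs of 5-aminolevulinate into porphobilinogen, fell from E14 to E18 and again from P5 to P56. Its log2 ratio was 0.37, 0.36 and 0.48 at E14, -0.08, -0.28 and -0.25 at E18, -0.42 and -0.65 at P5, and -1.53, -1.79 and -1.50 at P56. No arrays of different stages overlapped. It was 1.52-fold lower at E18 than at E14 (log2 difference -0.60, SE 0.11, adjusted p = 0.000711 by limma) and 2.11-fold lower at P56 than at P5 (-1.07, SE 0.12, adjusted p = 2.85e-05). At P56 Alad lay below the adult reference on all 3 arrays. Its probe lies on chr4:61944457-61944602 (minus strand, mm7), a span of 146 bases for 60 bases of probe.

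Uros closes the ring of uroporphyrinogen III, and its course differed from that of its neighbours after P5. Its log2 ratio was 2.14, 2.26 and 2.31 at E14, 1.67, 1.33 and 1.57 at E18, 1.26 and 0.63 at P5, and 0.69, 0.85 and 1.43 at P56. P5 and P56 overlapped, and their difference was 0.04 (95% interval -0.44 to 0.53, adjusted p = 0.886 by limma). Uros was 1.64-fold lower at E18 than at E14 (-0.71, SE 0.20, adjusted p = 0.0106). With the scan as a block that step was -0.56 and was not called. That estimate rests on E18 replicate 1 alone, the only E18 array in the scan of E14. The probe (chr7:130102563-130102622, minus strand, mm7) is dim: its Cy3 signal above local background was 35.2 to 76.8 units and its Cy5 signal 54.4 to 609, against an offset of 50 added in the background correction, so its ratios are pulled towards 0.
Uros probe: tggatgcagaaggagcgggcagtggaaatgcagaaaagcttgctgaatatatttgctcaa

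Urod, which decarboxylates uroporphyrinogen, had log2 ratios of 2.36, 2.52 and 2.49 at E14, 1.66, 1.61 and 1.56 at E18, and 1.24 and 1.52 at P5. At P56 it had -0.05 in replicate 1 and -0.16 in replicate 3, while its spot in replicate 2 was marked as an outlier and left out. It fell by 0.85 from E14 to E18, or 1.80-fold, the largest of the 6 falls called among the listed enzymes at that step (SE 0.10, adjusted p = 4.87e-05 by limma). From P5 to P56 it was 2.81-fold lower (-1.49, SE 0.12, adjusted p = 4.83e-06, fitted without the missing value).

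Of the mitochondrial enzymes, Cpox, which makes protoporphyrinogen, had log2 ratios of 1.70, 1.83 and 2.04 at E14, 1.44, 1.54 and 1.47 at E18, 1.29 and 1.26 at P5, and -0.78, -0.93 and -0.89 at P56. Stages did not overlap, and the adult arrays lay below the adult reference. Its fall from P5 to P56 was 4.41-fold (log2 difference -2.14, SE 0.11, adjusted p = 6.15e-08 by limma). The step from E14 to E18 was -0.37 (SE 0.10, adjusted p = 0.00918 by limma). With the scan as a block it was -0.41 and was not called, and there it too rests on E18 replicate 1 alone.

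Ppox, which oxidises protoporphyrinogen, had log2 ratios of 2.63, 2.64 and 2.70 at E14, 2.17, 2.23 and 2.27 at E18, 2.01 and 1.32 at P5, and 0.67, 0.21 and 0.37 at P56. It was 2.38-fold lower at P56 than at P5 (-1.25, SE 0.18, adjusted p = 0.000175 by limma). Its step from E14 to E18 was -0.44 and close to the threshold (adjusted p = 0.043), and the call was lost when any 1 of the 6 arrays of these stages was left out (adjusted p 0.0821 to 0.107). The Ppox probe spans 178 bases at chr1:171247414-171247591 (minus strand, mm7) and was dim, with Cy3 signals of 93.1 to 165 units above local background. Its Cy5 signals at P56 were 113, 37.0 and 71.4 units, near the offset of 50, so its ratios there are compressed. The step from P5 to P56 was -1.52 without background subtraction and -1.51 with the processed signals of Feature Extraction.

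Fech, which inserts iron into protoporphyrin, had log2 ratios of 1.97, 1.90 and 2.09 at E14, 1.48, 1.78 and 1.65 at E18, 2.04 and 2.01 at P5, and 0.48, 0.37 and 0.14 at P56. It was 3.24-fold lower at P56 than at P5 (-1.70, SE 0.13, adjusted p = 1.04e-06 by limma). The fall of 0.35 from E14 to E18 was called (adjusted p = 0.0218) and lost without E14 replicate 3 (adjusted p = 0.0847), E18 replicate 1 (0.086) or E18 replicate 3 (0.0558). From E18 to P5 its 2 probes disagreed, with 0.39 for the brighter probe used here (adjusted p = 0.0604) and -0.49 for the other. Both gave a fall from P5 to P56, of -1.70 and -2.01.

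**Figure D2:**
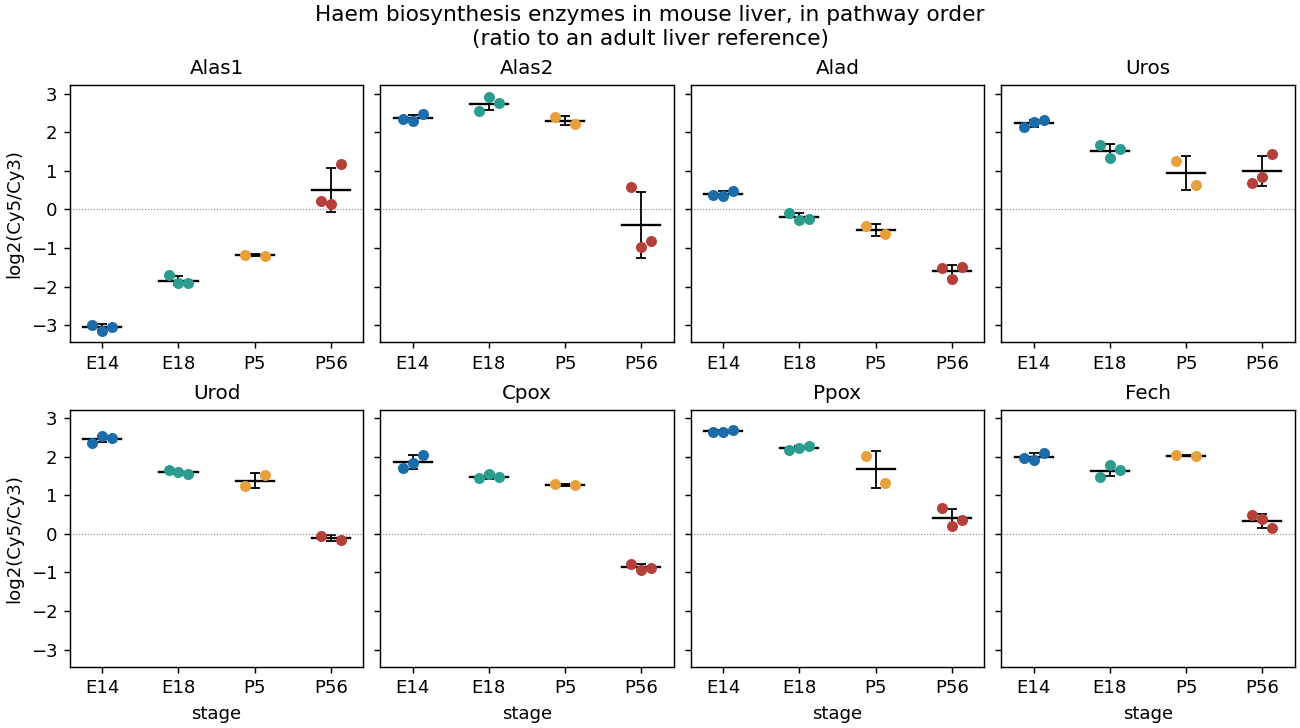
log2(Cy5/Cy3) of the 8 enzymes on each array by stage, in pathway order, with the stage mean and SD (n = 3, 3, 2 and 3, and 2 at P56 for Urod). Alas1 climbs from about -3.06 to 0.51, the other enzymes lie lower at P56 than at E14, and Uros alone has overlapping P5 and P56 arrays.

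From E14 to E18, 1 of the 8 listed enzymes rose (Alas1), 6 fell (Alad, Uros, Urod, Cpox, Ppox and Fech, with log2 differences of -0.35 to -0.85) and Alas2 was not called. Over all genes, 24.6% were called higher, 22.8% lower and 47.3% either way in that comparison. The median change of the 8 was -0.40, and that of all genes -0.01. The arrays of E14 and E18 did not overlap for 8 of the 8, and for 62.4% of all genes.

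From E18 to P5, limma called 0 of the 8, while 7.32% of all genes were called higher, 6.4% lower and 13.7% either way. The arrays of both stages did not overlap for 8 of the 8, and for 44% of all genes. At an unadjusted p under 0.05 there were 5 of 8 (Alas1, Alad, Uros, Ppox and Fech). The share of all genes at that looser threshold is not given here, so the 5 cannot be set against the 13.7%. The methods' t-test with Benjamini-Hochberg adjustment called 0. Without P5 replicate 2, Alad was lower at P5 by 0.44, Uros by 0.89 and Ppox by 0.90. P5 replicate 3 then stands alone for its stage and is assumed to vary like the others. It also had the lower mean log2 ratio of 19 erythroid genes, 2.60 against 3.31 in P5 replicate 2. The brightest of these genes went the other way, with 2.91 against 2.41 for Hba-a1, 3.95 against 3.32 for Hbb-b1 (both saturated) and 4.69 against 4.61 for Eraf. Without background subtraction, the steps of Uros and Ppox from E18 to P5 were -0.30 and -0.32, against -0.58 and -0.55 in the main fit. The part of erythroid content or of background correction in the result was not tested.

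From P5 to P56, 1 of 8 rose (Alas1), 6 fell (Alas2, Alad, Urod, Cpox, Ppox and Fech, with log2 differences of -1.07 to -2.71) and Uros was not called, where 20.9% of all genes were called higher, 24.7% lower and 45.6% either way. The arrays did not overlap for 7 of the 8, and for 61.3% of all genes. A fit that held the scan fixed also called these 7, where the contrast rests on P5 replicate 3 alone against the P56 arrays of its scan and the lone array is assumed to vary like the other groups. Over the whole course from E14 to P56, Alas1 rose and the other 7 fell, with log2 differences of -1.25 (Uros) to -2.78 (Alas2), where 36.1% of all genes were called higher, 34.8% lower and 70.9% either way. The arrays did not overlap for 8 of the 8, and for 75.7% of all genes. The median change of the 8 was -2.12, and that of all genes 0.04. All 8 directions from E14 to P56 were kept under median centring, scale normalization and the Cy5 channel alone, although scale normalization lost the calls of Alas2, Urod and Fech.

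**Figure D3:**
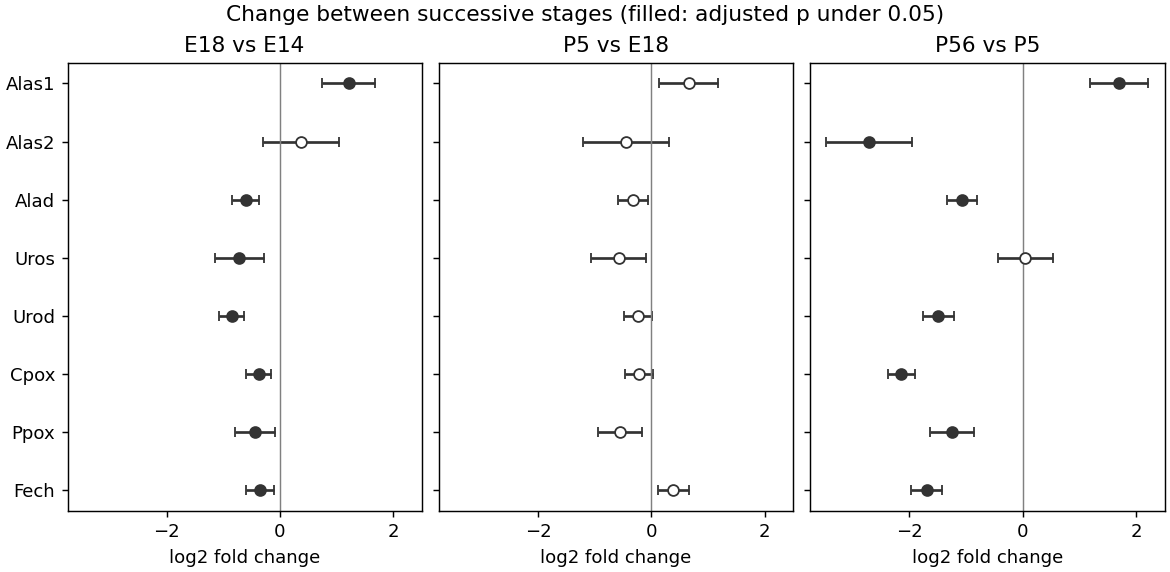
log2 fold change of each enzyme between successive stages with its 95% interval from limma (filled, adjusted p under 0.05, and open, not called). Filled points lie left of 0 for 6 enzymes at the first and last steps, Alas1 lies right of 0 at both, and the middle step has open points only.

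Alas2 was also set against each later enzyme on the same array. On this scale Alas2 minus Cpox was 0.51 ± 0.11 (SD, n = 3) at E14 and 1.26 ± 0.12 (n = 3) at E18. Alas2 minus Urod was -0.09 ± 0.11 at E14 and 1.14 ± 0.20 at E18, the largest shift. For all 6 enzymes listed after the first step, the difference was higher on every E18 array than on every E14 array. The mean shift was 0.73 (Fech) to 1.23 (Urod). All 6 hold the same Alas2 values, so they are not separate results. The share of all genes with such a difference is not given here, and 62.4% of all genes separate E14 from E18 on their own. These differences were looked at after the values were known and were not tested, and an exact permutation test of 3 against 3 arrays cannot go below 0.1. At P5 the difference was 0.27 ± 0.10 (n = 2) for Fech and 1.36 ± 0.33 for Uros. At P56 the means ran from -1.40 (Uros) to 1.20 (Alad), with -0.01 for Urod and 0.46 for Cpox.

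**Figure D4:**
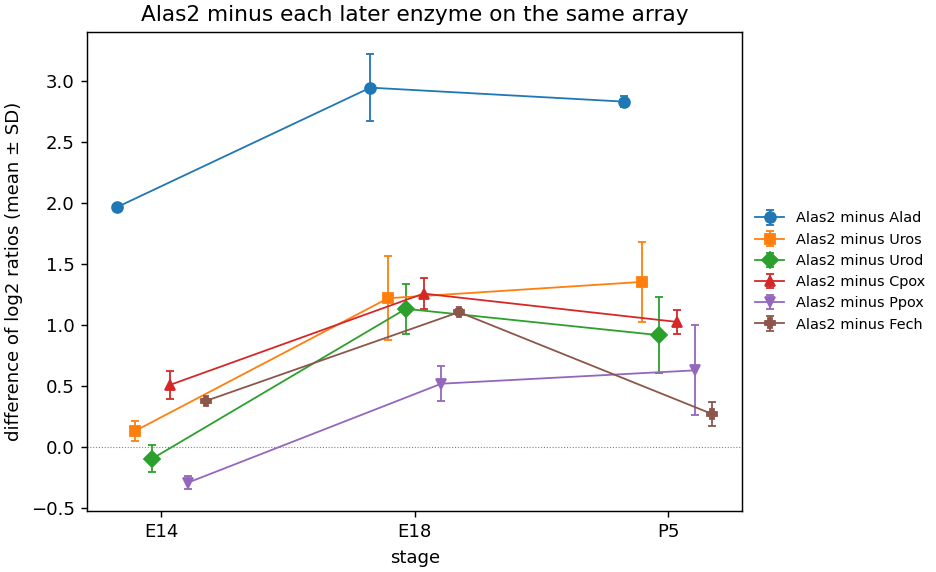
Difference of log2 ratios, Alas2 minus each later enzyme on the same array, as mean and SD by stage (n = 3 at E14, 3 at E18 and 2 at P5). All 6 lines hold the same Alas2 values and go up from E14 to E18, by 0.73 to 1.23. P56 is not drawn.

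Correlations between enzymes were taken across the 11 arrays, which share the reference and fall into 4 stages, so they are descriptions. Those with Urod leave out P56 replicate 2. Pearson's r was 0.98 for Alad with Urod and for Alad with Ppox, and 0.96 for Cpox with Fech. Alas2 had r of 0.94 with Cpox, 0.92 with Fech and 0.44 with Uros. Alas1 had a negative r with each of the others, from -0.98 (Urod) to -0.74 (Uros), and -0.83 with Alas2.

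Among 16440 genes with a value on every array, the genes most like Alas2 were Papd4 (r = 0.987), Hba-a1 (0.985), AK008871 (0.984), Ywhaz (0.983) and Rtf1 (0.983). Hba-a1 encodes alpha globin, and its probe was saturated on every E14, E18 and P5 array. At P56 Hba-a1 stood at -0.01, -1.23 and -0.81, with replicate 1 the highest as for Alas2. The genes most like Alas1 were Hspb8 (r = 0.992), Cyp3a11 (0.991), Nr1h3 (0.989), Ndfip1 (0.987) and Cxxc6 (0.987). Cyp3a11 encodes a haem-dependent cytochrome P450 and had mean log2 ratios of -4.12, -2.69, -1.86 and -0.06 at E14, E18, P5 and P56.

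Of 20 listed genes that move haem and its precursors or feed the iron-sulphur machinery, 15 were tested. At the step from E14 to E18, 0 rose and 4 fell (median -0.15), with 47.3% of all genes called. From P5 to P56, 4 rose and 3 fell, with 45.6% of all genes called. The largest change was that of Slc25a37, mitoferrin 1, which brings iron into the mitochondrion of erythroid cells. Its log2 ratio was 4.46 to 4.85 at E14, 4.51 to 4.83 at E18, 4.31 and 3.93 at P5, and -0.50 to -0.76 at P56, a 27.3-fold fall from P5 to P56 (adjusted p = 1.76e-09 by limma). Abcg2, an exporter of porphyrins, fell by 1.40 (adjusted p = 0.000407) and Abcb10, a mitochondrial transporter, by 0.98 (adjusted p = 0.000362). Hebp1, a haem-binding protein, rose by 1.18 (adjusted p = 0.000141).

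Of 8 tested genes of haem breakdown and scavenging, 6 rose and 2 fell from E14 to E18 (median 0.82), where 24.6% of all genes were called higher and 22.8% lower. The 2 that fell, both chosen for mention after their values were seen, were the biliverdin reductases Blvra (-0.44, adjusted p = 0.0269 by limma) and Blvrb (-0.48, adjusted p = 0.0135). Hp, haptoglobin, which binds free haemoglobin in plasma, rose 4.52-fold (adjusted p = 5.84e-07 by limma), and Lrp1, the receptor of haem bound to haemopexin, rose 3.20-fold (adjusted p = 2.66e-06). Cd163, the macrophage receptor of haptoglobin with haemoglobin, rose 3.28-fold from E18 to P5 (adjusted p = 0.000143), the only gene of this list called at that step. Hmox1, the inducible haem oxygenase, stood at 0.43, 0.02 and 0.09 at E14, 1.05, 0.98 and 1.00 at E18, 1.29 and 1.10 at P5, and -1.55, -1.17 and -1.13 at P56. It fell 5.57-fold from P5 to P56 (adjusted p = 2.20e-07), and 4 of the 8 genes fell at that step, with none called higher, beside 24.7% of all genes called lower. Macrophages recycle the haem of red cells, and 7 of 7 macrophage markers rose from E14 to E18 and 5 fell from P5 to P56 (median changes 1.69 and -0.92), beside 24.6% of all genes called higher at the first step and 24.7% called lower at the second. Their part in the changes of Hmox1 and Cd163 was not tested.

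Of 18 regulators of haem synthesis or of erythroid and hepatic haem demand, 8 rose and 2 fell from E14 to E18, where 47.3% of all genes were called, and 1 rose and 9 fell from P5 to P56, where 45.6% were. Por, the reductase that serves cytochromes P450 and haem oxygenase, rose 5.25-fold from E14 to E18 (adjusted p = 3.90e-08 by limma). The erythroid factors Klf1 and Nfe2 fell by 2.64 (adjusted p = 5.55e-08) and 3.34 (adjusted p = 1.64e-07) from P5 to P56. Tal1, another erythroid factor, had 4.88 to 5.12 at E14, 4.32 to 4.52 at E18, and 4.37 and 3.46 at P5, and was not well above background on any P56 array. Klf1, Nfe2, Tal1 and Gata1 also stand in the erythroid marker list. Ppargc1a, a coactivator of Alas1 transcription, was picked after its values were seen. It rose by 1.45 from E14 to E18 (adjusted p = 5.42e-05) and by 0.97 from E18 to P5 (adjusted p = 0.0106), and fell by 1.71 from P5 to P56 (adjusted p = 4.79e-05). The part of any listed regulator in the course of Alas1 was not tested.

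All 19 erythroid genes were well above background on every array up to P5, including those of stages labelled hepatoblasts or immature hepatocytes. At P56, 6 of 19 were so on all arrays, so values of the list there lie partly at the floor. Their mean log2 ratio was 3.33 to 3.45 at E14, 3.43 to 3.53 at E18, 2.60 and 3.31 at P5, and -0.09 to 0.005 at P56. The sum of their Cy5 signals ranged from 198096 to 253683 units over the arrays up to P5 and from 22666 to 39769 at P56, and the globins Hba-a1 and Hbb-b1 in it were saturated on every array up to P5. From E14 to E18, 3 of 19 rose and 3 fell, with 47.3% of all genes called. From P5 to P56 all 19 were called lower, beside 24.7% of all genes, with only a bound on the size for those not measured at P56. The part of erythroid content in the falls of the enzymes was not tested.

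The 11 hepatocyte genes tested were well above background on all arrays. Their mean log2 ratio was -3.61 to -3.52 at E14, -1.22 to -1.13 at E18, -0.42 and -0.30 at P5, and -0.63 to -0.02 at P56, and the sums of their Cy5 signals ranged from 48845 to 64373 units at E14 and from 148869 to 246444 later. From E14 to E18, 10 rose, beside 24.6% of all genes, and from P5 to P56, 4 rose and 3 fell, beside 45.6% called either way. Among the brightest of them, Alb1, albumin, rose by 2.62 and Apoa2, an apolipoprotein, by 1.91 from E14 to E18 (adjusted p = 8.49e-08 and 5.44e-07 by limma). Albumin was saturated on every E18 array. Alas1 rose by 1.70 from P5 to P56, where the hepatocyte genes had a median change of -0.08. Hepatocyte content as a part of the rise of Alas1 was not tested.

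**Figure D5:**
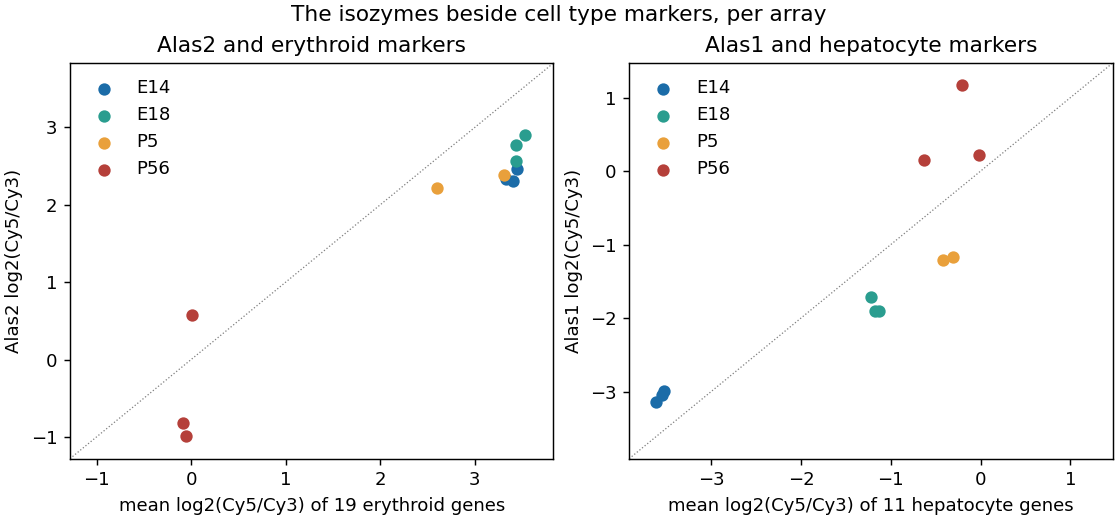
Left, log2(Cy5/Cy3) of Alas2 against the mean log2(Cy5/Cy3) of 19 erythroid genes, and right, Alas1 against the mean of 11 hepatocyte genes, with 1 point per array and the dotted line marking equal values. P56 stands apart on the left, where only 6 of the 19 markers were well above background on all its arrays, and on the right the P56 arrays lie above the P5 arrays at like marker means.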

How the data were processed

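Each of the 11 arrays was an Agilent 4x44k array hybridised with liver RNA (Cy5) and an adult liver reference (Cy3), with no dye swap. The authors deposited the intensity of every spot in both channels as written by Feature Extraction 9.5.1.1, not normalized between arrays, and also a gene table of log2 ratios after lowess, used as an alternative only. Local background was removed by normexp (offset 50) and the dyes were balanced by loess, array by array. Spots marked as outliers became missing values, and replicate spots were averaged. The filter asked that every array of some stage show the probe well above background in Cy5, with no more than 1 missing value in any stage. The brightest probe stood for each gene, and 16704 genes were tested, 263 with a missing value.

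Differences between stages came from limma 3.58.1 (lmFit, eBayes) under R 4.3.3, fitted to the arrays of all stages, and the difference of the isozymes by two-sided exact permutation tests. The fit was tested on simulated data. The enzymes and gene lists were chosen with earlier results of these data known. Named genes are the 8 enzymes, up to 4 called genes with the largest change per haem-related list, the 5 genes most like each isozyme, and the brightest cell type markers. Gene names and mm7 coordinates are those of the array design, and promoters are from RefSeq. A motif match and a gene are not reported here. The arrays were scanned in 4 scans, and the slide of each array could not be settled. Alternatives were other background corrections, normalizations, filters and probe choices, the Cy5 channel alone, the authors' table, the replicate number or scan as a block, fits on the arrays of only 2 stages, the methods' t-test and each array left out. Figures were drawn with matplotlib 3.10.9.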

Additional observations from a re-analysis of the deposited data

How the results depend on the processing

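From E14 to P56 the counts of 1 enzyme higher and 7 lower, and from P5 to P56 of 1 and 6, were the same with any array left out. From E14 to E18, 1 was higher and 4 to 5 lower with an array left out, and from E18 to P5 0 were higher and 0 to 3 lower, with 3 only without P5 replicate 2. Alas2 minus Alas1 ranged from -0.95 to -0.68 (E14 to E18), -1.26 to -0.99 (E18 to P5), -5.05 to -3.87 (P5 to P56) and -6.99 to -5.81 (E14 to P56).

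Scale normalization between arrays changed most. It gave 0 higher and 0 lower from E14 to E18 and 4 lower from E14 to P56, moved the difference of the isozymes to -7.42 (P5 to P56) and -5.33 (E14 to P56), and turned it to 2.46 from E18 to P5. The cause was not tested. The Cy5 channel alone gave 1 lower from E18 to P5 (Ppox) and -7.23 for the isozymes from E14 to P56. No background subtraction gave 1 higher from E18 to P5 (Fech), and a fit on the arrays of only 2 stages also 1 (Alas1), and 2 higher from E14 to E18, with Alas2 added (0.38, adjusted p = 0.00895). The authors' table gave 1 lower from E14 to E18 (Urod), and the methods' t-test 0 higher and 1 lower from P5 to P56 (Cpox). The share of all genes called is not given for these settings or with an array left out. A loss of calls over all genes therefore cannot be told from one among the enzymes. Among the single enzymes, 32 calls were lost and 4 gained, and 488 stayed on their side of the threshold over all settings other than leaving out an array. The 488 include Aquantile normalization, which cannot move a log ratio. They also include uncalled steps whose sign turned, such as Alas1 from E18 to P5, at -0.64 under scale normalization against 0.66 in the main fit.

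Same-numbered replicates did not deviate together (15 correlations from -0.30 to 0.19, and 30 of differently numbered arrays from -0.46 to 0.46). Deviations within a stage cancel out, so those of the P5 arrays mirror each other, and the correlations cannot exclude a pairing. The replicate block left 1 enzyme higher and 5 lower from E14 to E18, losing Ppox (adjusted p = 0.0631), and changed no other call. For the isozymes it gave -0.84 (E14 to E18) and -5.05 (P5 to P56). P5 has no replicate 1, and -5.05 is also the step without P56 replicate 1, so it is no separate check. Under median centring the median of all genes was -0.47 from P5 to P56 and -0.33 from E14 to P56, and under loess -0.02 and 0.04. From P5 to P56 Cpox then stood at -2.91 and Uros at -0.42 (not called), beside that median. Aquantile normalization leaves log ratios as they are, so it tests nothing here.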
